A study of Mus musculus with 14 samples.

Results

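Metallothioneins and a small set of zinc transport genes were followed in mouse brain after intracerebral haemorrhage (ICH) and acupuncture. The 9 genes were taken by name from the deposited expression table, of 31507 genes in all: the metallothioneins Mt1, Mt2 and Mt3, the zinc-sensing transcription factor Mtf1, the zinc exporters Slc30a1 and Slc30a3, and the zinc importers Slc39a1, Slc39a8 and Slc39a14. They were chosen by function and not by their values, although earlier results of these data were known. The study held 14 libraries from brain tissue: 7 of RNA fragments pulled down with an antibody against N6-methyladenosine (m6A), a methyl mark on mRNA, and 7 of the unselected poly(A) RNA (input). The groups were sham-operated mice (3 input and 3 IP libraries), mice with a haemorrhage made with autologous blood (ICH; 2 and 2), and mice with such a haemorrhage treated by acupuncture at the GV20 point for 7 days (2 and 2). The acupuncture label names only that treatment, and the haemorrhage in this group is taken from the study's design text. Strain, age, sex, hemisphere and time after surgery are not given in the sources used here, and neither is a group with acupuncture but no haemorrhage. Nothing in the labels ties replicates to separate mice, so p-values measure only the spread between these samples, which may be technical.

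Metallothioneins are small proteins rich in cysteine that bind zinc and copper and buffer free metal ions. Mt1 and Mt2 are made mainly by glia and vessels in the brain and are induced by metals, glucocorticoids and cytokines, whereas Mt3 is the form made in neural tissue with little induction by metals. The factor encoded by Mtf1 binds metal response elements in DNA when zinc is high and drives Mt1, Mt2 and the exporter gene Slc30a1. Proteins of the Slc30 family (ZnT) move zinc out of the cytosol, and those of the Slc39 family (ZIP) move it in. Slc30a3 encodes ZnT3, which fills the synaptic vesicles of glutamatergic neurons with zinc.

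To show which of the genes carry the core of a metal response element near their start, 2 letter patterns of that core, TGCACNC and TGCGCNC (N stands for any base), were searched on both strands. The windows ran from 250 bases before to 50 bases after each RefSeq gene start on GRCm38.p6. The patterns differ in a base, so matches to them do not coincide. RefSeq held a window for 8 of the 9 genes, with a second start for Slc30a3 and for Slc39a8. Mt2 had 4 matches in its window, 3 of them upstream of the start, Mt1 had 3 with 1 upstream, Slc30a1 had 2 with 1 upstream, and Mt3 had 1, which lay after the start. Mtf1 and Slc39a1 had none. One of the 2 windows of Slc30a3 and one of the 2 of Slc39a8 held 1 match. Of all 32851 windows of this length, 25.7% held at least 1 match, 7.11% at least 2, 1.97% at least 3 and 0.517% at least 4. The upstream 250 bases of the 3 metallothionein genes and of Slc30a1 are shown because they hold the most and the fewest matches among the metal-buffering genes, beside the exporter that the same factor drives. They are written 5′ to 3′ on the gene's strand (the plus strand for all 4), in lower case with matches in capitals.
Mt1, chr8:94178839-94179088: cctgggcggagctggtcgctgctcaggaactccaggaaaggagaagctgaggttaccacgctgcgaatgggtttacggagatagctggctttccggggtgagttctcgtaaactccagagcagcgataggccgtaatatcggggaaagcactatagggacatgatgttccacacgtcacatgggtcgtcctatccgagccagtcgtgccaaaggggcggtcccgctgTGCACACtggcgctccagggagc
Mt2, chr8:94172368-94172617: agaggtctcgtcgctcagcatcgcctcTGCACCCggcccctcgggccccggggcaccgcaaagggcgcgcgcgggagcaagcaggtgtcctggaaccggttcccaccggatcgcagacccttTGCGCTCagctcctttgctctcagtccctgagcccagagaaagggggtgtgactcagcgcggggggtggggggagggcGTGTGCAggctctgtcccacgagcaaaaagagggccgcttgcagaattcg
Mt3, chr8:94152357-94152606: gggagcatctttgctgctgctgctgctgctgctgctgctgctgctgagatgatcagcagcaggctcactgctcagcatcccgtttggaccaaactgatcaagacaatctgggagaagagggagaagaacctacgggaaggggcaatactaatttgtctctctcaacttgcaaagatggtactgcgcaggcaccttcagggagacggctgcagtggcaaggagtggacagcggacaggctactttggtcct
Slc30a1, chr1:191906531-191906780: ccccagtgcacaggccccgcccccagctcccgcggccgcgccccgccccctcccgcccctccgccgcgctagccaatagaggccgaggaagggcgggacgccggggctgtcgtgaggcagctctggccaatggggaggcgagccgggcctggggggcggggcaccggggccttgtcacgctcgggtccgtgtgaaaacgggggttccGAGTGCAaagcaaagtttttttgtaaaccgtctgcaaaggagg
The upstream matches began at positions -223, -128 and -50 from the start in Mt2, at -23 in Mt1 and at -43 in Slc30a1. Those after the start began at positions 3 and 21 in Mt1, 5 in Mt2, 31 in Slc30a1 and 28 in Mt3. Which matches count as upstream depends on the RefSeq start, and no other start of these 4 genes was searched. The upstream counts are therefore not a full count for a promoter. Mt3 had no capitals in this stretch. A match describes the letters only and does not show that a factor binds, and a missing match says only that these letters were not in the window.

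Levels were compared as FPKM (fragment counts scaled to transcript length and to sequencing depth), so genes can be set beside each other. Only FPKM was given, so the depth per library is unknown. The total FPKM ranged from 179810 to 198472 over the 7 input libraries. ICH replicate 2 stood apart: its log2 values correlated with those of ICH replicate 1 at r = 0.942, whereas the sham libraries correlated with each other at 0.983 to 0.988 and the acupuncture pair at 0.976. Acupuncture replicate 2 nearly lacked choroid plexus transcripts, with a summed level of 6 markers of 1.64 FPKM beside 335 to 486 in the other libraries. Neuronal and glial markers fit the brain label: 5 pan-neuronal markers summed to 553 to 852 FPKM in every library. All 13666 genes that averaged 1 FPKM or more in the input libraries entered a limma model of log2(FPKM + 1) with 1 mean per group. A gene is said to be called, to rise or to fall where its p, adjusted by the Benjamini-Hochberg method over those genes, was under 0.05. Fold changes on this scale understate the change of low genes. Slc39a8 did not reach 1 FPKM on average, so 8 of the 9 genes were tested.

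In the sham libraries, the mean level was highest for Mt3 (190 ± 3.20 FPKM, SD, n = 3), followed by Mt2 (109 ± 17.4), Mt1 (92.2 ± 12.2), Slc30a3 (17.4 ± 1.10), Slc39a1 (11.7 ± 0.624), Slc30a1 (8.09 ± 0.232), Mtf1 (3.44 ± 0.0907), Slc39a14 (2.50 ± 0.156) and Slc39a8 (0.487 ± 0.0731). Of neighbours in this order, only Mt2 and Mt1 overlapped in their sham libraries. In the acupuncture libraries the order at the top was Mt2 (486 ± 56.8 FPKM, n = 2), Mt3 (366 ± 20.4) and Mt1 (278 ± 33.0), with no overlap between neighbours. In ICH the 3 metallothioneins overlapped, with means of 271 ± 110 for Mt1, 260 ± 48.0 for Mt2 and 238 ± 80.2 for Mt3. Slc39a1 stood below Slc30a3 in every sham library and above it in every ICH and acupuncture library, at 20.9 against 17.7 FPKM and 14.7 against 14.0 in the ICH libraries.

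**Figure D1:**
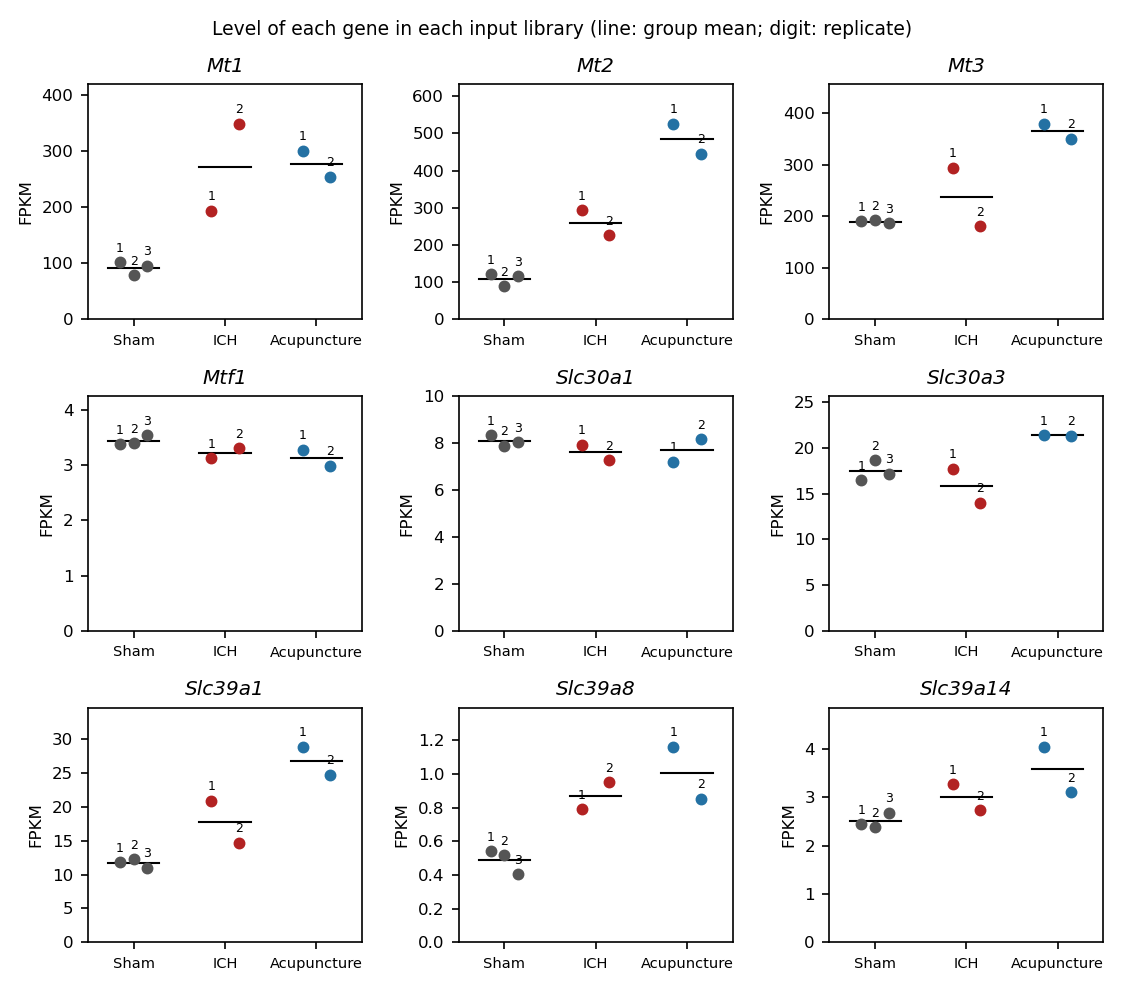
Level of each of the 9 genes in FPKM (vertical axes, each from 0) in the 7 input libraries of the sham, ICH and acupuncture groups. Each point is 1 library with its replicate number above it, and lines mark group means. Mt2 separates the 3 groups, from 88.8 to 121 FPKM in sham to 446 to 526 in acupuncture, while Mtf1 ranges from 2.99 to 3.54 and Slc30a1 from 7.21 to 8.34 over all 7 libraries.

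The question of the first comparison was which of these genes differ in brain after haemorrhage. Of the 8 tested, Mt1 and Mt2 rose in ICH against sham and none fell, and the libraries of the 2 groups did not overlap in 5 of 8. Over all tested genes, 4.95% were called higher, 0.724% were called lower and 40.3% did not overlap. The median log2 fold change of the 8 genes was 0.24, beside -0.01 over all tested genes.

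Mt1, a metal-buffering protein of glia, measured 102, 78.6 and 95.7 FPKM in the sham libraries and 194 and 349 in the ICH libraries. Both ICH libraries were above every sham library, and they lay far apart from each other. The mean was 2.94-fold that of sham (log2 fold change 1.49, SE 0.25, adjusted p = 0.0186). This call was lost when any 1 of the sham libraries was left out (adjusted p 0.0598 to 0.0710) and with replicate number as a block (0.0989). The log2 fold change was 1.07 without ICH replicate 2 (adjusted p = 0.0218) and 1.92 without ICH replicate 1 (adjusted p = 0.00112). Each of these refits leaves 1 ICH library, which is assumed to vary like the other groups, here and in the genes below. They called 5.04% and 38% of all tested genes, from 776 genes called with all libraries to 687 and 5204.

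Mt2, its close relative a few kilobases away on chromosome 8, measured 121, 88.8 and 116 FPKM in sham and 294 and 226 in ICH. The groups did not overlap, and here ICH replicate 1 was the higher of the pair, the reverse of Mt1. Its mean was 2.39-fold that of sham (log2 fold change 1.25, SE 0.19, adjusted p = 0.0109), and the log2 fold change was 1.44 with ICH replicate 1 as the only ICH library (adjusted p = 0.0131). When all genes with a value above 0 were tested, neither Mt1 (adjusted p = 0.0730) nor Mt2 (0.0599) passed the threshold.

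Mt3, the neural form, measured 190, 193 and 186 FPKM in sham and 295 and 181 in ICH. One ICH library was above and the other below all sham libraries. The log2 fold change was 0.28 (SE 0.20, adjusted p = 0.415), with a 95% confidence interval from -0.19 to 0.76. With ICH replicate 1 as the only ICH library it was 0.63 (adjusted p = 0.00950, the spread being taken from the other groups). With ICH replicate 2 alone it was -0.06 (adjusted p = 0.544), so the value rested on which ICH library was kept.

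Mtf1, the zinc sensor, measured 3.38, 3.39 and 3.54 FPKM in sham and 3.13 and 3.31 in ICH. The groups did not overlap but differed by only -0.07 on the log2 scale (95% confidence interval -0.28 to 0.13). Slc30a1, the exporter of the cell membrane, measured 8.34, 7.89 and 8.04 FPKM in sham and 7.94 and 7.28 in ICH, with overlapping groups and a difference of -0.08 (-0.30 to 0.14). Neither was called (adjusted p = 0.621 for Mtf1 and 0.620 for Slc30a1).

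Slc39a1, which encodes the zinc importer ZIP1, measured 11.8, 12.2 and 11.0 FPKM in sham and 20.9 and 14.7 in ICH. Both ICH libraries were above all sham libraries, but the log2 fold change of 0.55 (SE 0.16) was not called (adjusted p = 0.109). With ICH replicate 1 as the only ICH library, and the spread taken from the other groups, it was 0.79 (adjusted p = 0.0154). Slc39a14 encodes ZIP14, which also carries iron and manganese, and measured 2.44, 2.38 and 2.68 FPKM in sham and 3.27 and 2.74 in ICH. Its groups did not overlap, and the log2 fold change was 0.19 (SE 0.12, adjusted p = 0.389).

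Slc39a8 encodes ZIP8, which carries manganese and zinc. It measured 0.540, 0.517 and 0.404 FPKM in sham and 0.792 and 0.951 in ICH, without overlap. In the fit with no filter on low values its log2 fold change was 0.33 (SE 0.11, adjusted p = 0.266). Slc30a3, the vesicular transporter, measured 16.5, 18.6 and 17.2 FPKM in sham and 17.7 and 14.0 in ICH. These groups overlapped (log2 fold change -0.14, SE 0.12, adjusted p = 0.509).

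The second comparison set acupuncture beside ICH. None of the 8 tested genes was called in either direction by limma, while 4 of 8 (Mt2, Mt3, Slc30a3 and Slc39a1) had an unadjusted p under 0.05 and were higher with acupuncture. The same 4 of 8 had groups that did not overlap. Over all tested genes, 0.0366% were called higher and 0% lower, and 2754 of 13666 had an unadjusted p under 0.05. The groups did not overlap in 49.5% of all tested genes, so 4 of 8 without overlap is near that share. The median log2 fold change was 0.30 in the 8 genes and 0.05 in all tested genes.

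Mt2 measured 526 and 446 FPKM with acupuncture and 294 and 226 in ICH. Both acupuncture libraries were above both ICH libraries, with a mean 1.87-fold as high (log2 fold change 0.91, SE 0.20, adjusted p = 0.182). Mt1, by contrast, measured 301 and 254 FPKM, between the 2 ICH values of 194 and 349. Its log2 fold change was 0.09 (95% confidence interval -0.57 to 0.75, adjusted p = 0.854), and it was -0.0044 when libraries were rescaled to the same total FPKM. Mt3 measured 380 and 351 FPKM, above 295 and 181 in ICH (log2 fold change 0.66, SE 0.22, adjusted p = 0.210). Slc39a1 measured 28.9 and 24.7 FPKM, above 20.9 and 14.7 (0.58, SE 0.17, adjusted p = 0.198). Slc30a3 measured 21.4 FPKM and 21.3 FPKM, above 17.7 and 14.0 (0.41, SE 0.13, adjusted p = 0.206). In all 4 genes, ICH replicate 1 lay nearer to the acupuncture libraries than ICH replicate 2 did. With ICH replicate 2 as the only ICH library, which is then assumed to vary like the other groups, Mt2 (1.10), Mt3 (1.01), Slc30a3 (0.57) and Slc39a1 (0.82) were called, at adjusted p = 0.0105, 0.00159, 0.00699 and 0.00490. That refit called 37.3% of all tested genes, so 4 of 8 is near that share. With ICH replicate 1 alone the log2 fold changes were smaller for Mt2 (0.72), Mt3 (0.31) and Slc39a1 (0.34). None of the 4 genes, Slc30a3 among them, was called in that refit.

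Mtf1 (3.28 and 2.99 FPKM with acupuncture), Slc30a1 (7.21 and 8.17), Slc39a8 (1.16 and 0.852) and Slc39a14 (4.05 and 3.11) overlapped with ICH. Their log2 fold changes against ICH were -0.03, 0.01, 0.10 and 0.19. The confidence interval for Mtf1 ran from -0.26 to 0.20 and that for Slc30a1 from -0.23 to 0.26. The sign for Slc30a1 turned under both scalings tried, to -0.03 with quantile normalization and -0.07 with equal totals.

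The third comparison, acupuncture against sham, shares its libraries with the other 2 comparisons, so its values are not independent of them. Mt1, Mt2, Mt3 and Slc39a1 rose, 4 of 8 tested genes, and none fell. Over all tested genes 8.47% were called higher and 3.22% lower (1158 and 440 genes; 923 and 721 with quantile normalization, and 993 and 753 with equal totals). Groups did not overlap in 7 of the 8 genes, beside 55.2% of all tested genes. The median log2 fold change was 0.66 in the 8 genes and 0.04 in all.

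Mt2 had the largest fold change of the 8: its mean was 4.47 times that of sham, with both acupuncture libraries far above all sham libraries (log2 fold change 2.16, SE 0.19, adjusted p = 6.74e-04). It was called in each of the 15 alternatives run. Mt1 was 3.01-fold higher (1.58, SE 0.25, adjusted p = 0.00875). The Mt1 call was lost in 2 of the 15 alternatives, without acupuncture replicate 1 (1.46) and with replicate number as a block. Slc39a1 was 2.29-fold higher (1.13, SE 0.16, adjusted p = 0.00478) and was also called in each of the 15 alternatives. Mt3 was 1.93-fold higher (0.94, SE 0.20, adjusted p = 0.0256). Its acupuncture libraries were above all sham libraries, but the call was lost when any 1 of the 3 sham libraries (adjusted p 0.0748 to 0.0940), acupuncture replicate 1 (0.159) or acupuncture replicate 2 (0.116) was left out. It was also lost when all genes with a value above 0 were tested (adjusted p = 0.0976) and with replicate number as a block.

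The other genes were not called against sham. Slc30a3 was higher in both acupuncture libraries than in all sham libraries (log2 fold change 0.28, SE 0.12, adjusted p = 0.201) and was called when only sham and acupuncture libraries were fitted (adjusted p = 0.0354), a refit that called 23.5% of all tested genes. Slc39a14 differed by 0.38 (SE 0.12, adjusted p = 0.106) without overlap. Slc39a8 differed by 0.43 (SE 0.11, adjusted p = 0.110 in the fit with no filter), also without overlap. Mtf1 was lower in both acupuncture libraries than in all sham libraries, by a log2 fold change of -0.10 (95% confidence interval -0.31 to 0.11, adjusted p = 0.540). Slc30a1 overlapped (-0.07, -0.29 to 0.16, adjusted p = 0.725). Mt1, Mt2 and Slc30a1 were named above as driven by the factor that Mtf1 encodes. Of these, Mt1 and Mt2 were called against sham and Slc30a1 was not, and the activity of the factor was not tested.

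**Figure D2:**
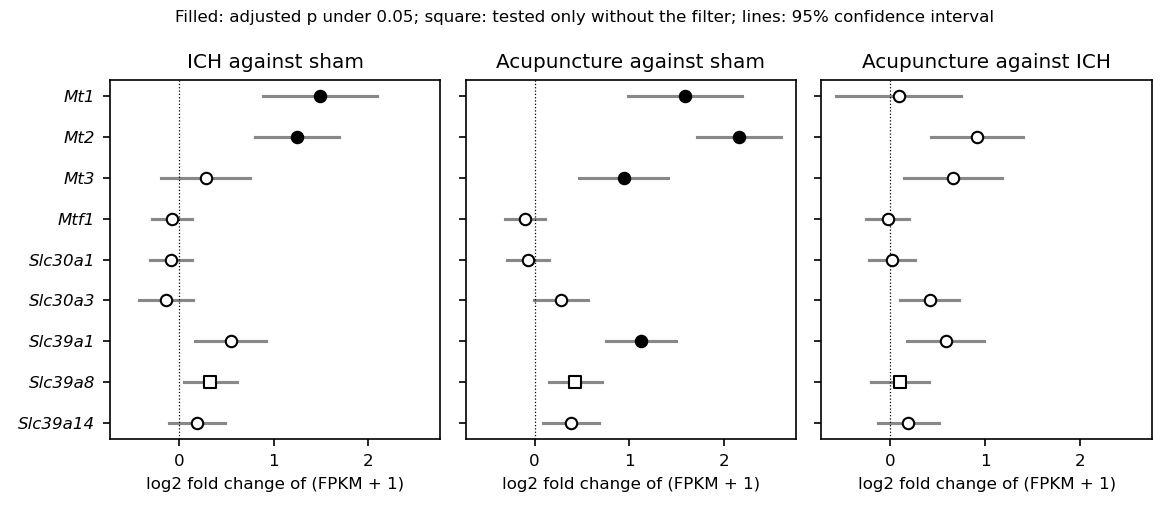
Log2 fold change of FPKM + 1 (horizontal axes) for each gene in the 3 comparisons, with 95% confidence intervals as lines. Filled points were called at an adjusted p under 0.05, and squares show Slc39a8, tested only with no filter on low values. Mt1 and Mt2 are called against sham in both panels, Mt3 and Slc39a1 with acupuncture only, and no gene is called between acupuncture and ICH.

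The make-up of the metallothionein pool also differed between libraries. Mt1, Mt2 and Mt3 together summed to 360 to 413 FPKM in sham, 756 and 782 in ICH and 1207 and 1051 with acupuncture. Mt3 took 46.0%, 53.5% and 46.8% of this sum in the sham libraries, 37.7% and 24.0% in ICH and 31.5% and 33.4% with acupuncture. The log2 ratio of Mt1 plus Mt2 to Mt3 was 0.23, -0.20 and 0.19 in sham, 0.73 and 1.66 in ICH, and 1.12 and 0.996 with acupuncture. All 4 haemorrhage libraries were above all sham libraries. The mean difference from sham was 1.12 for ICH and 0.99 for acupuncture, each with p = 0.1 in a two-sided exact permutation test, the smallest that 3 against 2 libraries allow (0.15 after Benjamini-Hochberg adjustment over the 3 comparisons). Acupuncture and ICH differed by -0.14, with ICH on both sides (exact permutation p = 1, smallest possible 0.333). The ratio of Mt1 to Mt2 was 0.822 to 0.886 in sham, 0.660 and 1.55 in ICH, and 0.572 and 0.570 with acupuncture. Only ICH replicate 2 had more Mt1 than Mt2.

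Markers of other cell types moved with these groups. In bulk tissue, fewer cells of a type and less RNA per cell cannot be told apart. The 8 astrocyte markers summed to 347 to 374 FPKM in sham, 787 and 867 in ICH, and 845 and 691 with acupuncture, and none was at 0 in any library. Most of that difference was Gfap, the filament protein of reactive astrocytes, at 24.0 to 29.4 FPKM in sham, 394 and 338 in ICH and 451 and 362 with acupuncture. Of the 8 astrocyte markers, 2 were called higher in ICH and 3 with acupuncture, both against sham. The 8 microglia and macrophage markers summed to 64.9 to 84.0 FPKM in sham, 310 and 238 in ICH and 341 and 343 with acupuncture. Of the 7 tested, 6 were called higher in ICH, and 6 higher and 1 lower with acupuncture. The 5 neutrophil markers summed to 7.29 to 10.2, 15.2 and 14.2, and 75.6 and 48.0 FPKM in the 3 groups. Nearly all of that was S100a8 (30.9 and 19.2 FPKM with acupuncture) and S100a9 (43.4 and 27.8), the only 2 tested. Retnlg measured 1.13 and 1.02 FPKM with acupuncture. Ly6g did not exceed 0.145 FPKM in any library and Mpo did not exceed 0.0658, so the sum does not describe 5 markers moving together. The 5 endothelial markers summed to 25.8 to 33.3, 47.2 and 37.6, and 66.8 and 63.5 FPKM. Against sham, 2 were called higher in ICH and 3 with acupuncture. Most of the difference between ICH and acupuncture was Cldn5, at 30.0 and 16.8 against 47.5 and 45.5 FPKM. Pecam1 and Cdh5 had slightly higher means with acupuncture than in ICH, and Flt1 and Tek had lower ones. The 6 fibroblast and meningeal markers summed to 21.3 to 26.9, 30.0 and 38.0, and 25.9 and 26.4 FPKM, and 2 were called higher in each haemorrhage group against sham. The 5 oligodendrocyte markers summed to 852 to 1092 FPKM in sham, 700 and 682 in ICH and 660 and 417 with acupuncture, and 2 were called lower with acupuncture against sham. The 5 erythroid markers summed to 187 to 380, 80.4 and 181, and 232 and 319 FPKM, with 1 of 4 tested called lower in ICH against sham. Of the 5 tested choroid plexus markers, 2 were called lower with acupuncture against sham. Among all tested genes, 4.95% were called higher and 0.724% lower in ICH, and 8.47% and 3.22% with acupuncture, all against sham. The part of these cell types in the levels of Mt1, Mt2, Mt3 and Slc39a1 was not tested. For Slc30a3, the 6 markers of excitatory neurons, which make ZnT3, summed to 428 to 565 FPKM in sham, 551 and 532 in ICH and 538 and 501 with acupuncture, and none of them was called in any of the 3 comparisons.

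Genes with the most similar profile to Mt2 were found by the root mean square difference of log2(FPKM + 1), each centred on its own mean, over the 7 input libraries. The closest were Ifitm1 (0.122), Slfn2 (0.128), Ncf4 (0.138), Arpc1b (0.147) and Tgm2 (0.155), beside a median of 0.933 over all tested genes. Ifitm1, for example, measured 1.35 to 2.57 FPKM in sham, 6.87 and 5.52 in ICH and 11.4 and 9.56 with acupuncture. Within the family, Mt1 differed from Mt2 by 0.459 and Mt3 by 0.573, and the importer Slc39a1 by 0.475. For Slc30a3 the closest were Cdipt (0.0367), Prrg2 (0.0491), Arl1 (0.0521), Abca7 (0.0528) and Cetn3 (0.0534), beside a median of 0.244. Such lists describe 7 libraries that share their group structure and carry no test.

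Among 20 further zinc genes, 18 were in the table (Mt4 and Slc30a8 had no row) and 15 were tested. None was called in ICH against sham or acupuncture against ICH by limma (3 and 3 with an unadjusted p under 0.05), and 1 was called lower with acupuncture against sham. The medians of their log2 fold changes were -0.02, -0.06 and -0.01 (ICH against sham, acupuncture against ICH, acupuncture against sham). The gene called was Slc30a10, which encodes a manganese exporter: it measured 3.52, 2.75 and 3.24 FPKM in sham, 2.32 and 2.20 in ICH, and 2.11 and 1.73 with acupuncture. Its 3 groups followed each other downwards with no overlap, and acupuncture against sham gave -0.51 (SE 0.12, adjusted p = 0.0368). Slc39a4, the importer ZIP4, averaged under 1 FPKM and entered only the fit with no filter on low values. It measured 0.331, 0.116 and 0.353 FPKM in sham, 0.963 and 0.960 in ICH and 1.23 and 0.873 with acupuncture, all 4 haemorrhage libraries above sham. In that fit it was called higher with acupuncture against sham (0.70, SE 0.13, adjusted p = 0.0456) and not in ICH against sham (0.64, adjusted p = 0.0925). It falls outside the rule for named genes and was chosen after its values were seen. Slc39a2, the importer ZIP2, measured 2.67, 2.72 and 2.46 FPKM in sham, 2.55 and 1.87 in ICH and 3.64 and 4.68 with acupuncture (0.69 against ICH, adjusted p = 0.179). Slc39a12, a zinc importer of brain, measured 14.1, 11.3 and 13.1, then 13.1 and 13.5, then 10.9 and 8.15 FPKM (-0.45 against ICH, adjusted p = 0.214).

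Metallothioneins also bind copper, so 10 copper genes were set beside them, 8 of which were tested. Of these, 1 rose in ICH against sham, none was called in acupuncture against ICH (4 with an unadjusted p under 0.05 in limma), and 3 rose in acupuncture against sham. Their medians were -0.07, 0.38 and 0.43. Shares of all tested genes called higher were 4.95% in ICH and 8.47% with acupuncture, both against sham. In acupuncture against ICH, 2754 of all 13666 had an unadjusted limma p under 0.05. Cp, ceruloplasmin, the copper-carrying ferroxidase, measured 0.990, 1.10 and 1.42 FPKM in sham, 5.16 and 7.78 in ICH and 7.17 and 6.65 with acupuncture. Every haemorrhage library was above every sham library, and the log2 fold change was 1.77 in ICH (SE 0.17, adjusted p = 0.00163) and 1.87 with acupuncture (adjusted p = 7.81e-04), both against sham. Slc31a1, the copper importer CTR1, rose with acupuncture against sham by 0.49 (adjusted p = 0.0150), and its relative Slc31a2 by 0.83 (adjusted p = 0.00154). Slc31a2 measured 2.87, 2.96 and 3.02 FPKM in sham, 4.23 and 3.75 in ICH and 5.97 and 6.10 with acupuncture, with no overlap between any 2 groups.

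The m6A peak lists give, for each stretch of RNA that the antibody enriched, 1 value of log2 IP over input for a whole group, computed by the authors. There is thus no spread between replicates, and the p-values printed for peaks are the authors' own. Whether the acupuncture values include samples beyond those titled is not given, so they may not rest on the same libraries as the FPKM. All 9 genes carried listed peaks in all 3 groups: 20 of 48251 peaks in the authors' deposited sham list, 26 of 54754 in ICH and 24 of 50105 with acupuncture. The median enrichment of these peaks was 1.41, 1.40 and 1.25, beside 1.07, 1.24 and 1.12 over each deposited list. In the authors' annotation 14, 19 and 18 of them lay in the 3′ UTR (70%, 73.1% and 75%, beside 54.5%, 52.3% and 54.7% of all peaks). With an overlap of at least 1 bp on the same strand, 20 of 20 sham peaks met an ICH peak and 18 of 20 an acupuncture peak. Of the ICH peaks, 20 of 26 met a sham peak and 18 of 26 an acupuncture peak. Of the acupuncture peaks, 20 of 24 met a sham peak and 22 of 24 an ICH peak. Several peaks span introns, so their length is not a length of RNA.

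On Mt2 the authors' deposited lists held 1 peak per group, which covered nearly the whole gene and ended at its last base (chr8:94172764-94173568 in sham). Its enrichment was 1.59 in sham, 1.99 in ICH and 1.68 with acupuncture. Mt1 had 1 peak in sham, chr8:94179657-94180327 at 1.36. In ICH the deposited list held 2 shorter ones, chr8:94179932-94180056 at 1.41 and chr8:94180132-94180327 at 1.23. With acupuncture there were also 2, at 0.97 for the first and 1.29 for the second, which again reached the gene's end. Mt3 was listed with a peak at its 5′ end, chr8:94152607-94153275, at the same position in all 3 deposited lists and at 1.60, 1.74 and 1.54. Its other peak lay at the 3′ end, at 1.27 in sham, 1.79 in ICH, where it was longer, and 1.38 with acupuncture.

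**Figure D3:**
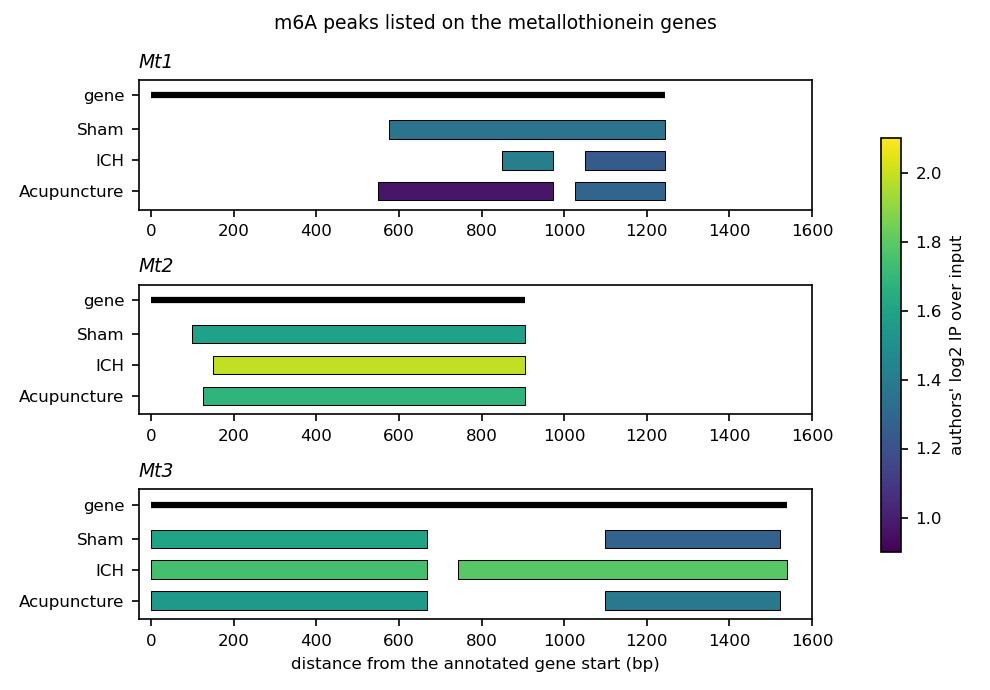
Map of the authors' m6A peaks on Mt1, Mt2 and Mt3 in sham, ICH and acupuncture. The horizontal axis is the distance in bp from the annotated gene start, bars are listed peaks, and colour is the authors' log2 IP over input. Mt1 has 1 peak in sham and 2 in ICH and acupuncture, and the Mt2 bar is brightest in ICH, at 1.99.

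Slc30a1 had the strongest enrichment of the 9 genes in sham. The long peak over the 5′ part of the gene stood at 3.15 in sham, 3.12 in ICH and 3.19 with acupuncture in the authors' deposited lists. Only 3.94%, 4.18% and 3.44% of all peaks in those lists were higher. The authors annotated this long Slc30a1 peak as 3′ UTR. The 5′ peak of Mtf1 was at 2.80, 3.21 and 3.03, the highest of the 9 genes in ICH. The highest listed values of Slc39a1 were 1.69, 2.13 and 1.89 at its 3′ end, and those of Slc39a14 were 1.48, 1.63 and 1.49 in its 3′ UTR. For Slc39a8 the highest values were 1.46 in sham (5′ UTR), 1.35 in ICH (3′ UTR) and 1.22 with acupuncture (exonic). Slc30a3 was listed at 2.28 for a 5′ UTR peak in sham, which stood at 1.54 in ICH and had no counterpart in the acupuncture list. Its 3′ UTR peak was at 1.27, 2.05 and 1.52.

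The authors' deposited tables of differential peaks compare the enrichment of 2 groups, and each of the listed peaks on these genes had an authors' p under 0.05. The value of 1 peak in a group differs slightly between tables. In ICH against sham, 11 listed peaks fell on 8 of the 9 genes, 8 higher and 3 lower in ICH, and all 11 had an authors' adjusted p under 0.05. Of all 23124 peaks listed there, 78.7% were higher, so 8 of 11 is near that share. The median difference was 0.50 for these peaks and 0.56 for all. In acupuncture against ICH, 13 peaks on all 9 genes were listed, 2 higher and 11 lower with acupuncture, beside 18.7% higher among all peaks listed there. The medians were -0.40 and -0.46. In acupuncture against sham, 12 peaks were listed, 6 higher and 6 lower, beside 58.2% higher among all peaks listed there, with medians of -0.02 and 0.24. The 3 tables share libraries, so a peak that stands high in ICH appears in 2 of them.

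On the metallothionein RNAs, enrichment differed by modest amounts in the authors' deposited tables. The 3′ peak of Mt3 (chr8:94153706-94154146) was 0.50 higher in ICH than in sham (1.74 against 1.23, authors' adjusted p = 2.47e-99). Acupuncture differed from ICH by -0.37 at this peak and from sham by 0.10. The Mt2 peak (chr8:94172789-94173568) covered nearly the whole gene, so its differences cannot be placed at the 3′ end. This peak was 0.37 higher in ICH than in sham (1.94 against 1.57). It differed by -0.27 between acupuncture and ICH and by 0.07 between acupuncture and sham, where the authors' adjusted p was 0.129. Mt1 went the other way at its last segment (chr8:94180107-94180327), at 1.19 in ICH and 1.37 in sham, a difference of -0.18. The segment of Mt1 just before it (chr8:94179932-94180056) stood at 0.96 with acupuncture and 1.36 in ICH, a difference of -0.40, whereas the last segment (chr8:94180132-94180327 in that table) was slightly higher with acupuncture than in ICH (1.27 against 1.19, a difference of 0.08, authors' adjusted p = 3.28e-04). Against sham, both Mt1 peaks were lower with acupuncture, by differences of -0.15 and -0.11.

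Larger differences lay on the transport genes and Mtf1, per the authors' deposited tables. The peak at the end of Slc30a1 (chr1:191912829-191913247) stood at 2.28 in ICH and 1.10 in sham, a difference of 1.18 (authors' adjusted p = 9.04e-15), and a short peak just before it differed by 0.80. Acupuncture against ICH gave -0.68 at this end, and 2 shorter peaks gave -0.73 and -0.40, while acupuncture against sham gave 0.55. The long peak that begins near the start of the same RNA was annotated as 3′ UTR. It differed by only -0.17 in ICH and -0.16 with acupuncture, both against sham, the latter at an authors' adjusted p of 0.0679. The 3′ peak of Mtf1 (chr4:124849019-124849793) was at 2.72 in ICH and 1.80 in sham, a difference of 0.92, and acupuncture against ICH gave -0.63. A second Mtf1 peak, of 150 bases, was at 1.31 with acupuncture and 0.26 in sham. The 3′ peak of Slc30a3 (chr5:31086106-31086605) was at 1.90 in ICH and 1.23 in sham (0.68), and differed by -0.50 between acupuncture and ICH and by 0.21 between acupuncture and sham. The lower mean FPKM of Slc30a3 in ICH rested on ICH replicate 2: without it the log2 fold change against sham was 0.02.

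The importers did not move as 1 set in the authors' deposited tables. Slc39a1 had 2 higher 3′ peaks in ICH against sham (0.53 and 0.39). With acupuncture against ICH it had 2 lower ones, at its 5′ end (-0.86) and in its 3′ UTR (-0.45), and against sham the 5′ end was also lower (-0.62). Slc39a14 had an exonic peak (chr14:70311155-70313814) at 0.40 in ICH and 1.47 in sham, a difference of -1.07, and acupuncture against sham gave -1.03 at nearly the same place (authors' adjusted p = 0.0632). Acupuncture against ICH gave -0.38 for the peak at its 3′ end (authors' adjusted p = 0.114). Slc39a8, the gene with the lowest level, had 2 long exonic peaks with opposite signs in acupuncture against sham (-1.90 at an authors' adjusted p of 0.0152, and 1.45 at 0.120) and 1 in acupuncture against ICH (1.17, adjusted p = 0.0903). Those 3 peaks span 24556 to 29275 bases of the genome.

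**Figure D4:**
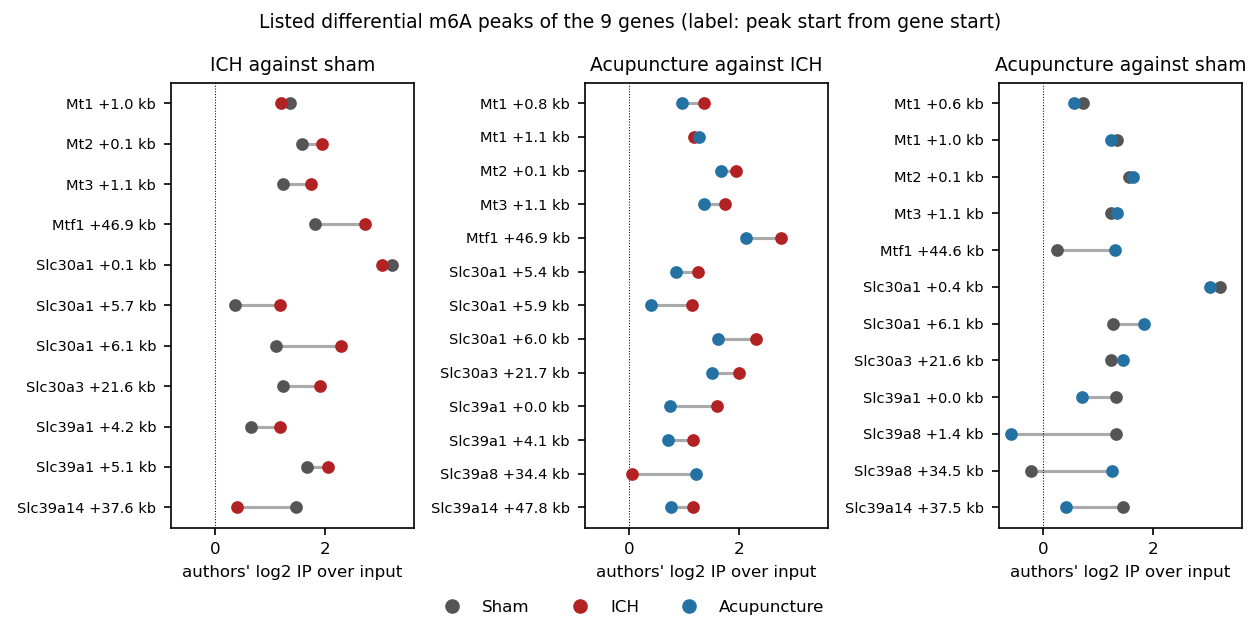
Authors' log2 IP over input (horizontal axes) in the 2 groups of each deposited differential table, for every listed peak of the 9 genes. Labels give the gene and the distance of the peak's start from the gene start in kb, and each pair of points is 1 peak. In the first panel 8 of 11 peaks are higher in ICH than in sham, and in the second 11 of 13 are lower with acupuncture than in ICH.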

How the data were processed

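The authors deposited FPKM per gene and input library, named so per the file headers, together with a peak list for each group and a table of differential peaks for each pair. These give the authors' log2 IP over input and their p-values, as deposited. Tools in the submitters' processing notes are HISAT2, StringTie, HOMER, edgeR and fastp, with no role or version. They name a human build, whereas the files hold mouse Ensembl identifiers. The coordinates of 92.5% of 25299 genes matched by symbol, and of all 9 genes here, lay within 1000 bp of GRCm38.p6, so that build is used. Columns headed control and EA were matched to sham and acupuncture by elimination, and 2 FPKM columns that matched no sample were not used.

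Log2(FPKM + 1) of the 7 input libraries was fitted with limma 3.58.1 under R 4.3.3, using a mean-variance trend and moderated, two-sided tests. The fit was also run on simulated data with independent noise, of the same spread per gene in every group. Those data held no library that stood apart as ICH replicate 2 did, so they cannot show how the fit behaves there. The genes, lists and rules were chosen with earlier results of these data known. Named are all 9 genes, called genes of the zinc and copper lists (at least 3 per list, by p) and the 5 genes most like Mt2 and Slc30a3. For peaks, each gene's highest peak per group and every differential peak were taken. Depth is unknown. Alternatives changed the pseudocount, filter, scaling, variance trend, libraries fitted, replicate block, peak threshold, span and overlap. Promoter windows are from RefSeq. Python 3.11.15 with pandas 2.3.3 and matplotlib 3.10.9 was used.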

Additional observations from a re-analysis of the deposited data

How the results depend on the processing

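Of 354 refits of the fold changes of the 8 tested genes, 317 kept their direction and side of the threshold, 15 lost the call, 10 gained one and 12 turned sign. The cause of these changes was not tested. Leaving out 1 library gave ranges that crossed 0. In ICH against sham these were -0.064 to 0.63 for Mt3 (lowest without ICH replicate 1) and -0.29 to 0.024 for Slc30a3 (highest without ICH replicate 2). In acupuncture against ICH they were -0.33 to 0.51 for Mt1 (below 0 without ICH replicate 1 or acupuncture replicate 1, -0.03), -0.078 to 0.022 for Mtf1 (above 0 without ICH replicate 2, 0.0028, or acupuncture replicate 2) and -0.068 to 0.092 for Slc30a1 (below 0 without ICH replicate 2, -0.04, or acupuncture replicate 2). Against sham, Slc30a1 with acupuncture ranged from -0.15 to 0.013. Mt1 turned to -0.0044 with equal totals, and Slc30a1 to -0.032 with quantile normalization and -0.070 with equal totals, both in acupuncture against ICH. The metallothionein ratio, acupuncture against ICH, ranged from -0.60 without ICH replicate 1 to 0.33 without ICH replicate 2. With a filter of 5 FPKM, 250 genes were called in ICH against sham, from 776, and 707 in acupuncture against sham, from 1598. With only 2 groups fitted, 2 were called in acupuncture against ICH, from 5, and 3207 in acupuncture against sham. Leaving out 1 library gave 392 to 5204, 2 to 5098 (the highest of both without ICH replicate 1) and 775 to 3197 in ICH against sham, acupuncture against ICH and acupuncture against sham. Of the 9 genes, limma called 0 in ICH against sham with no filter (4 with an unadjusted p under 0.05), and leaving out 1 library gave 1 to 4, 0 to 4 and 2 to 5. Deviations from the group mean in same-numbered libraries of different groups correlated at -0.015 to 0.094. In a group of 2 libraries the deviations mirror each other, so these few values cannot show whether the numbers pair libraries. With the replicate block 351, 3 and 750 genes were called (2.57%, 0.022% and 5.49% of those tested), among them 1, 0 and 2 of the 8 tested here. The fits with 1 library left out also tested 8 of the 9 genes. The ICH peaks of the 9 genes fell from 26 to 17 when limited to a span of 1000 bp. FPKM without counts limits what can be said of Slc39a8.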
